A study of Mus musculus with 6 samples.

Results

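The genes of the proteasome were examined in mouse liver that expresses an active form of the transcription factor IRF3. They were taken as the rows of the deposited table whose symbol in GENCODE M21 begins with Psm, a letter from a to g and a digit, and 48 of the 20894 rows met this rule. Of the 48, 5 are inducible members (Psmb8, Psmb9, Psmb10, Psme1 and Psme2), 30 are constitutive subunits and 13 are other members, such as assembly chaperones and further activators. Psmd14, Psmc3ip and 4 pseudogenes also carry such symbols but had no row in that table, so they were not analysed here. All mice carried the Irf3LSL-2D allele (LSL is the usual name of a stop cassette that Cre removes, and IRF3-2D is known as an active IRF3), and all received ethanol intraperitoneally at 3 g per kg body weight, 2 h before the liver was taken. In the IRF3-2D group (3 samples) Cre was delivered by AAV8-TBG-Cre, and the Ctrl group (3 samples) received AAV8-TBG-GFP. The TBG promoter is active in hepatocytes, so Cre was directed to these cells, and the groups differ in Cre against GFP as well as in active IRF3. Livers without ethanol were not analysed here.

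The proteasome degrades proteins marked with ubiquitin. Its core particle is a stack of alpha and beta rings with the catalytic sites on beta subunits inside, and a regulatory particle of ATPase and non-ATPase subunits unfolds the substrate and feeds it in. Under interferon signalling the catalytic subunits encoded by Psmb5, Psmb6 and Psmb7 can be replaced in newly built cores by those of Psmb8, Psmb9 and Psmb10, which gives the immunoproteasome. Psme1 and Psme2 encode the alpha and beta subunits of the activator PA28, which caps the core and is also induced by interferon. The peptides made in this way are known for their use in class I antigen presentation.

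Libraries held 12054096 to 13606973 counts in IRF3-2D and 13940893 to 14830629 in Ctrl samples. Irf3 itself, the gene the allele carries, stood at 117.5, 106 and 137 CPM (counts scaled to a common library size with TMM factors) in the IRF3-2D libraries and at 42.6, 46.4 and 60.3 CPM in the Ctrl libraries, a log2 fold change of 1.27 with SE 0.16 (edgeR adjusted p = 0.00152). All tests below set IRF3-2D against Ctrl with edgeR's quasi-likelihood F-test over 10802 genes, and genes with an adjusted p (Benjamini-Hochberg) under 0.05 are termed called. Of all tested genes 26.3% were called, 13.2% higher and 13.1% lower, and the median log2 fold change was 0.03. With library totals in place of TMM the median became 0.49, so a change that is small on the log2 scale depends on the scaling. All 8 hepatocyte markers were detected, 1 of them called higher and 6 lower, or 2 higher and 3 lower with library totals alone. The call of Hnf4a (lower) was also lost without 5 of the libraries in turn. Alb averaged 50830 ± 4016 CPM in IRF3-2D and 118700 ± 22920 CPM in Ctrl samples (SD, n = 3 each). It was called lower with TMM (log2 fold change -1.22) and with library totals alone (-0.78).

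Active IRF3 in hepatocytes went with more RNA of every inducible member, while most constitutive subunits were not called. All 5 inducible members were called higher, by 2.29-fold to 4.02-fold, against a background of 13.2% of tested genes. Of the 30 constitutive subunits 28 were tested, and of these 4 were called higher and 2 lower by edgeR (4 and 6 by DESeq2), with a median log2 fold change of -0.05. The median of the inducible members was 1.58. In counts, the inducible members made up 18.6%, 19.2% and 18.4% of all proteasome counts in the IRF3-2D libraries and 7.61%, 7.62% and 8.33% in the Ctrl libraries. This share does not depend on scaling between libraries, and the groups did not overlap.

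Psmb8 (ENSMUSG00000024338, chromosome 17, 34197721 to 34201454, plus strand, coordinates of GENCODE M21, GRCm38) encodes the inducible counterpart of the Psmb5 subunit, with chymotrypsin-like activity. Psmb8 had 105, 108 and 102 CPM in the IRF3-2D libraries and 24.8, 28.4 and 25.2 CPM in the Ctrl libraries. The groups lay far apart and the libraries within each were close together. Its log2 fold change was 2.01 (SE 0.08, adjusted p = 2.16e-05 by edgeR), the largest of the 41 tested members. Psmb9 (ENSMUSG00000096727, chromosome 17, 34181987 to 34187764, minus strand) encodes the counterpart of the Psmb6 subunit. It stood at 44.5, 48.8 and 50.9 CPM in the IRF3-2D libraries, against 14.6, 10.9 and 15.7 CPM in the Ctrl libraries. Every IRF3-2D library was above every Ctrl library, and Ctrl replicate 2 was the lowest. The log2 fold change was 1.81 (SE 0.15, adjusted p = 0.000294 by edgeR). Psmb10 (ENSMUSG00000031897, chromosome 8, 105935735 to 105938444, minus strand) encodes the counterpart of the Psmb7 subunit, with trypsin-like activity. It had 63.4, 66.1 and 68.0 CPM in the IRF3-2D libraries and 25.0, 26.6 and 25.0 CPM in the Ctrl libraries. Here too the groups did not overlap, with a log2 fold change of 1.37 with SE 0.08 (edgeR adjusted p = 5.91e-05).

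The PA28 genes were the most abundant inducible members. Psme1 (ENSMUSG00000022216, chromosome 14, 55578123 to 55581529, plus strand), which encodes PA28 alpha, had 268, 248 and 233 CPM in the IRF3-2D libraries and 78.8, 78.7 and 92.5 CPM in the Ctrl libraries. Psme2 (ENSMUSG00000079197, chromosome 14, 55587441 to 55591113, minus strand), which encodes PA28 beta, had 184, 208 and 212 CPM in the IRF3-2D libraries, against 81.0, 87.3 and 95.1 CPM in the Ctrl libraries. For both genes every IRF3-2D library was above every Ctrl library, as for 23.7% of all tested genes. The log2 fold change was 1.58 for Psme1 (SE 0.10, adjusted p = 0.000121) and 1.195 for Psme2 (SE 0.10, adjusted p = 0.000321 by edgeR). From the largest fold change to the smallest the order was Psmb8, Psmb9, Psme1, Psmb10 and Psme2. Within 1 SE the neighbours in this order overlapped, apart from Psme1 and Psmb10, and differences between fold changes were not tested. Psme2 shares 33.5% of its 31-base words with other genes, and Psme2b, a copy of it, shares 78.4%, so reads could fall to either. Psme2b itself had 59, 43 and 12 counts in the IRF3-2D libraries and 9, 4 and 14 in the Ctrl libraries, which overlap, and it was not called (adjusted p = 0.107 by edgeR).

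**Figure D1:**
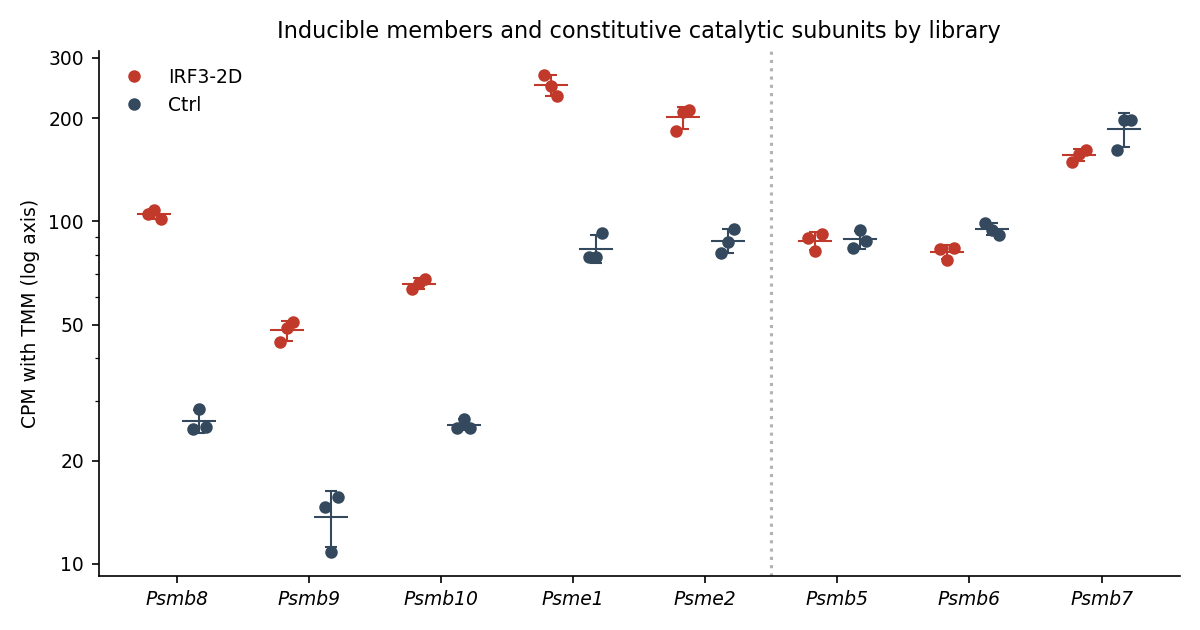
Level of the 5 inducible members (left of the dotted line) and of the 3 constitutive catalytic subunits they correspond to, in CPM with TMM on a log axis. Points are libraries (3 IRF3-2D in red, 3 Ctrl in dark blue), with the mean as a line and the SD as a bar. Psmb8 lies at 102 to 108 CPM in IRF3-2D and at 24.8 to 28.4 CPM in Ctrl libraries, while Psmb5 lies at 82.0 to 91.8 CPM in IRF3-2D and at 83.9 to 94.4 CPM in Ctrl libraries.

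The constitutive catalytic subunits were not called in either direction by edgeR with TMM. Psmb5 had 89.7, 82.0 and 91.8 CPM in the IRF3-2D libraries and 83.9, 94.4 and 87.5 CPM in the Ctrl libraries. Psmb6 had 83.3, 77.2 and 83.8 CPM in the IRF3-2D libraries and 99.0, 94.5 and 91.2 CPM in the Ctrl libraries. Psmb7 had 149, 158 and 161 CPM in the IRF3-2D libraries and 162, 198 and 197 CPM in the Ctrl libraries. The groups overlapped for Psmb5, and for Psmb6 and Psmb7 every IRF3-2D library was below every Ctrl library, as for 21.2% of all tested genes. The log2 fold changes were -0.01 (SE 0.09), -0.22 (SE 0.08) and -0.25 (SE 0.10), and edgeR called 0 of the 3, with 2 at an unadjusted p under 0.05, while DESeq2 called 2 lower (Psmb6 and Psmb7) and limma-voom 0. With library totals alone these log2 fold changes were 0.44, 0.23 and 0.21, so their direction turns with the scaling. In that setting edgeR called Psmb5 higher (adjusted p = 0.0031), and Psmb6 and Psmb7 were not called. Psmb5 has 71.7% of its 31-base words in common with other genes, which leaves its counts uncertain.

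Ratios within a library are free of this dependence, and they were taken for each inducible subunit over the one it can replace. Per base of transcript, Psmb8 made up 39.4%, 42.1% and 38.0% of Psmb8 plus Psmb5 in the IRF3-2D libraries and 14.0%, 14.2% and 13.7% in the Ctrl libraries. Psmb9 made up 24.0%, 27.2% and 26.4% of Psmb9 plus Psmb6 in the IRF3-2D libraries, against 8.02%, 6.35% and 9.23% in the Ctrl libraries. Psmb10 made up 27.3%, 27.0% and 27.2% of Psmb10 plus Psmb7 in the IRF3-2D libraries, against 12%, 10.6% and 10.1% in the Ctrl libraries. Per base, the constitutive gene was the more abundant one of each pair in all 6 libraries, and the groups did not overlap. In counts not divided by length, Psmb8 exceeded Psmb5 in the IRF3-2D libraries, with 1630, 1597 and 1552 counts against 1387, 1211 and 1400. The log2 ratio of counts, not divided by length, was higher in IRF3-2D by 2.02 for Psmb8 to Psmb5 (mean 0.26 ± 0.13 in IRF3-2D and -1.76 ± 0.03 in Ctrl, SD, n = 3 each). It was higher by 2.04 for Psmb9 to Psmb6 (-0.76 ± 0.13 in IRF3-2D and -2.80 ± 0.29 in Ctrl) and by 1.61 for Psmb10 to Psmb7 (-1.25 ± 0.01 in IRF3-2D and -2.86 ± 0.15 in Ctrl). Each of these differences had p = 0.1 in a two-sided exact permutation test over libraries, which is the smallest p that 3 against 3 allows. These ratios compare RNA, and no protein was measured.

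**Figure D2:**
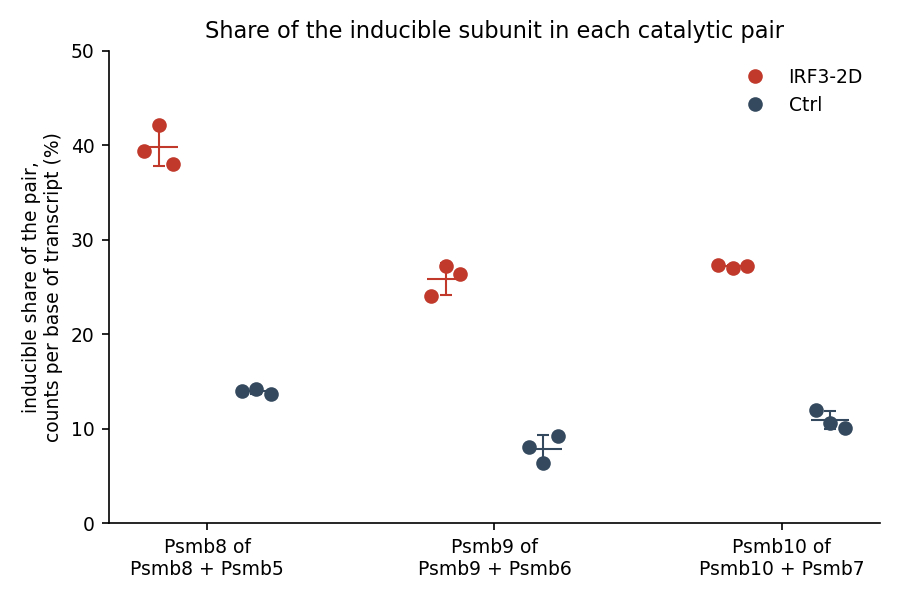
Share of the inducible subunit in each catalytic pair, as counts per base of the longest coding transcript, in percent. Points are libraries (IRF3-2D red, Ctrl dark blue), lines are means and bars are SD. Psmb8 reaches 39.8% ± 2.12 of its pair in IRF3-2D and 14.0% ± 0.267 in Ctrl samples.

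Psme1 and Psme2 were set beside Psme3, which encodes PA28 gamma, a nuclear relative that is not known as an interferon target. Psme3 had 29, 10 and 3 counts in the IRF3-2D libraries and 4, 30 and 16 in the Ctrl libraries. These counts are too few and too scattered for a ratio to be read: the log2 ratio to Psme3 differed between the groups by 2.24 for Psme1 and by 1.85 for Psme2 (p = 0.2 for each, two-sided exact permutation test, n = 3 each). Psme4, which encodes the activator PA200, had 4, 4 and 10 counts in the IRF3-2D libraries and 1, 3 and 3 in the Ctrl libraries and did not pass the count filter.

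The promoters of the inducible members were read from RefSeq (GRCm38.p6), as windows of 250 bases before to 50 bases after an annotated start, and 40 of the 48 members had a window. Searched on both strands were the core of the interferon-stimulated response element (ISRE, bound by IRF and STAT complexes), which is GAAA, any 2 bases and GAAA, and the gamma-activated site (GAS), TTCNNNGAA. The ISRE core was found in 1 of the 5 inducible members (Psme1), in 2 of 24 constitutive subunits (Psmb3 and Psmd4) and in 3.99% of the 27025 genes with a window. GAS was found in 1 of the 5 (Psmb8), in 1 of 24 constitutive subunits (Psmd2) and in 9.55% of all genes. Psmb8 and Psme1 are printed because they hold these matches, Psmb9 because it shares its upstream region with Tap1, and Psmb5 as the constitutive counterpart of Psmb8. Each runs 5′ to 3′ on the strand of its gene, and capitals mark the ISRE core or GAS, which do not overlap.
Psmb8, chr17:34197945-34198244, plus strand, a GAS match in capitals: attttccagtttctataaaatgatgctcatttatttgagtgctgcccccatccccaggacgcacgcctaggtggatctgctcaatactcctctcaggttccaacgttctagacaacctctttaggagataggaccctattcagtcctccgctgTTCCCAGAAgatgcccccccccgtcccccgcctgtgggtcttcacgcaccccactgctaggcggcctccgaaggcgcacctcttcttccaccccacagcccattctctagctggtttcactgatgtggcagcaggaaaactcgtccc
Psme1, chr14:55578244-55578543, plus strand, an ISRE core match on the other strand in capitals: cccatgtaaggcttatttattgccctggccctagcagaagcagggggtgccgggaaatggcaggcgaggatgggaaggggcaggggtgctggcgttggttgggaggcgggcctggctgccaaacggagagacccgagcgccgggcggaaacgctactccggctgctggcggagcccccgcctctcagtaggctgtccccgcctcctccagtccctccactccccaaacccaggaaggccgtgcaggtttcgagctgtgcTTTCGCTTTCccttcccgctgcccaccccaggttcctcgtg
Psmb9, chr17:34187281-34187580, minus strand, no match of either motif: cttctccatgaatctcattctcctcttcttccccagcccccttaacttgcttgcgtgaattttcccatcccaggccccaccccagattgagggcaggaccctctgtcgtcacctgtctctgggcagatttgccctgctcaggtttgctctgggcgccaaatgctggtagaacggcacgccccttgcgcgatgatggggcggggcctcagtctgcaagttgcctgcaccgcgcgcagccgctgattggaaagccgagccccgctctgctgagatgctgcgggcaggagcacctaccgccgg
Psmb5, chr14:54617946-54618245, minus strand, no match of either motif: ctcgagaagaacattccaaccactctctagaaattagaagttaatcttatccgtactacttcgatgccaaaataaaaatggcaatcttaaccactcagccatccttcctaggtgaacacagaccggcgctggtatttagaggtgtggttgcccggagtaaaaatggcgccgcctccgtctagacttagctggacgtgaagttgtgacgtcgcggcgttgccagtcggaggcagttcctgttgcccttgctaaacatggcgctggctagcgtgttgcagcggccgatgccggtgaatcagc
The match in Psme1 reads GAAAGCGAAA on the other strand and begins 10 bases into the transcript, and the one in Psmb8 reads TTCCCAGAA and begins at position -97 from the start. Among further motifs searched on both strands, the CCAAT box was in 1 of the 5 inducible members (Psmb9), in 9 of 24 constitutive subunits and in 41.1% of all genes. The core of the antioxidant response element, TGANNNNGC, was in 3 of 5, in 14 of 24 and in 45.0% of all genes. A kappaB consensus was in 0 of 5, in 5 of 24 and in 9.55% of all genes. A match says only that these letters occur in the window, and elements farther away were not searched.

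The inducible members stand at 3 places in the genome, and their nearest tested neighbours were read from the same fit (2 on each side). On chromosome 17 Psmb9 and Psmb8 flank Tap1 and stand beside Tap2, the genes of the transporter that carries peptides into the endoplasmic reticulum. Tap1 averaged 55.3 ± 5.18 CPM in IRF3-2D and 24.2 ± 3.49 CPM in Ctrl samples, a log2 fold change of 1.195, and Tap2 had a log2 fold change of 1.32 (adjusted p = 0.000961 and 0.000548 by edgeR). The class II genes next to this block, H2-DMb1, H2-DMb2 and H2-Ab1, were not called, with log2 fold changes of 0.18, -0.07 and 0.09. Exons of Psmb9 and Tap1 overlap on opposite strands, and the strand setting of the counting is not given in the sources used here, so reads in the overlap cannot be told apart. On chromosome 14 Emc9, which lies between Psme1 and Psme2 and overlaps an exon of Psme1 on the other strand, was not called (log2 fold change -0.24). Irf9, which encodes a subunit of the ISGF3 complex, lies on the far side of Psme2 and was higher by 0.75, while Dcaf11 on the far side of Psme1 was lower by 0.52 on the log2 scale. Next to Psmb10, Lcat was lower by 0.52 as well, and with library totals alone Lcat and Dcaf11 were at -0.07 and not called, while Pskh1 and Slc12a4 were not called. Of 14 distinct neighbours that are not inducible members, 4 were called higher and 2 lower, against 13.2% and 13.1% of all tested genes. The call of Rec8 beside Irf9 (log2 fold change 2.11) was lost without IRF3-2D replicate 1 or Ctrl replicate 3.

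**Figure D3:**
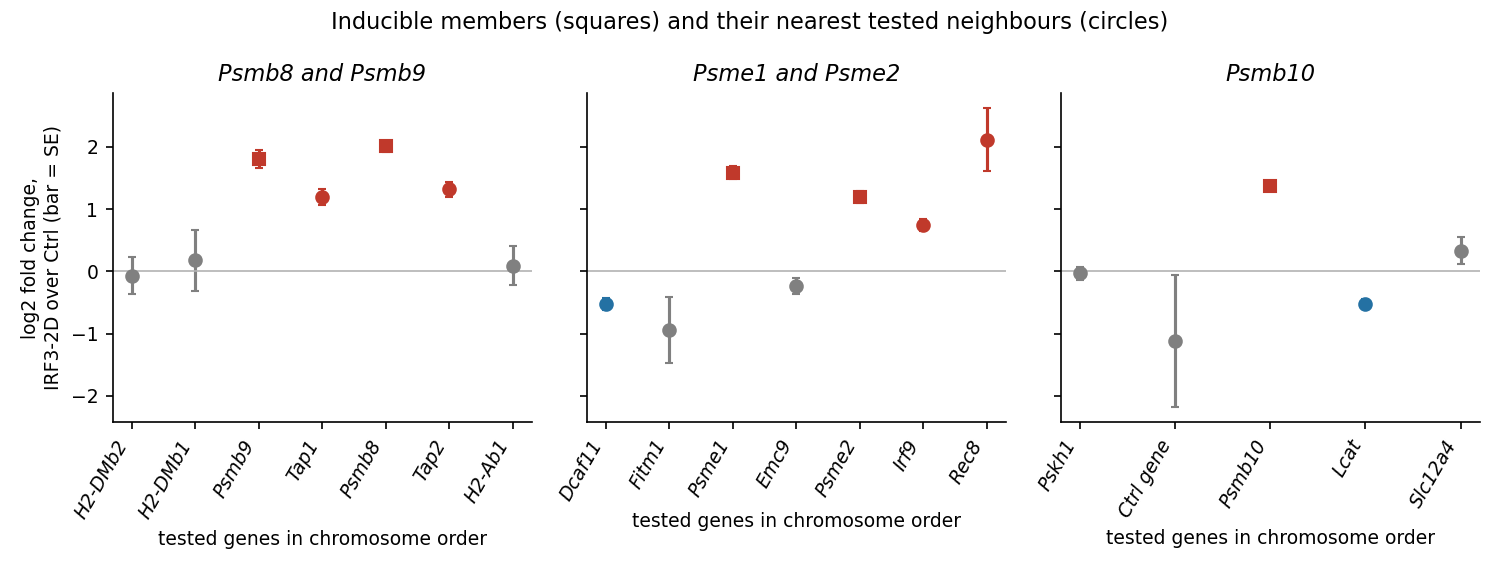
Log2 fold change (IRF3-2D over Ctrl) with its SE for the inducible members (squares) and their nearest tested neighbours (circles), in chromosome order at 3 loci. Red is called higher, blue called lower and grey not called. Tap1 and Tap2 rise beside Psmb9 and Psmb8 (1.195 and 1.32), while Emc9 between Psme1 and Psme2 lies at -0.24.

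Constitutive subunits were read by their place in the particle, beside 13.2% of all tested genes called higher and 13.1% called lower by edgeR. In the alpha ring, which gates the core, 1 of 7 was called higher and 0 lower by edgeR (2 at an unadjusted p under 0.05), and DESeq2 gave 1 and 0. Psma1 had 187, 187 and 180.0 CPM in the IRF3-2D libraries and 112, 103 and 110 CPM in the Ctrl libraries, with no overlap (log2 fold change 0.77, SE 0.08, adjusted p = 0.000643 by edgeR). The other 6 ranged from -0.42 for Psma4, with a mean of only 53.2 counts, to 0.18 for Psma5. Of the 4 structural beta subunits, Psmb2 was called higher, at 64.6, 59.3 and 66.8 CPM in the IRF3-2D libraries, against 53.6, 47.2 and 43.2 CPM in the Ctrl libraries. The groups did not overlap, but this call (log2 fold change 0.40, SE 0.10, adjusted p = 0.0259 by edgeR) was lost without IRF3-2D replicate 1 or 3 or Ctrl replicate 2 or 3, where it was 0.33 to 0.39. Psmb1, Psmb3 and Psmb4 lay at -0.40, -0.23 and -0.02 and were not called.

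In the regulatory particle, 1 of 6 ATPase genes was called higher and 0 lower by edgeR (3 at an unadjusted p under 0.05), while DESeq2 called Psmc6 lower as well. Psmc5 had 133, 134 and 133 CPM in the IRF3-2D libraries and 78.4, 82.1 and 85.3 CPM in the Ctrl libraries. The IRF3-2D libraries were all above the Ctrl libraries and nearly equal among themselves (log2 fold change 0.70, SE 0.07, adjusted p = 0.000805 by edgeR). The other ATPase genes ranged from -0.22 for Psmc6 to 0.25 for Psmc3. Of 8 tested non-ATPase subunits, 1 was called higher and 2 lower by edgeR (4 at an unadjusted p under 0.05). DESeq2 and limma-voom each called 1 higher and 3 lower. For both sets the edgeR shares of all tested genes were 13.2% higher and 13.1% lower. Psmd8 had 277, 250 and 260 CPM in the IRF3-2D libraries and 134, 108 and 116 CPM in the Ctrl libraries. With no overlap and a log2 fold change of 1.13 with SE 0.10 (edgeR adjusted p = 0.000494), its change came close to that of Psme2. Psmd6 had 67.3, 65.6 and 69.4 CPM in the IRF3-2D libraries and 86.2, 94.6 and 82.2 CPM in the Ctrl libraries. Psmd1 had 163, 159 and 164 CPM in the IRF3-2D libraries and 197, 204 and 193 CPM in the Ctrl libraries. Both had every IRF3-2D library below every Ctrl library. Their log2 fold changes were -0.38 for Psmd6 (SE 0.08, adjusted p = 0.0147) and -0.29 for Psmd1 (SE 0.07, adjusted p = 0.0267 by edgeR), and with library totals alone they became 0.08 and 0.16 and were not called. The call of Psmd6 was lost without IRF3-2D replicate 1 or 2 (-0.38 and -0.36), and that of Psmd1 without any library other than Ctrl replicate 1 (-0.27 to -0.32).

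Among the constitutive subunits, the calls of Psmd8, Psma1 and Psmc5 held under all 14 alternatives, as did those of the 5 inducible members. The share of sequence words found in other genes was 1.87% for Psmd8, 0.34% for Psma1 and 0 for Psmc5. Psmd8 has 7 annotated transcripts, Psma1 has 5 and Psmc5 has 2, and the table does not say which of them was counted. Across the constitutive subunits as a whole, 4 of 28 called higher is 14.3% against the background of 13.2%, and 2 of 28 called lower is 7.14% against 13.1%. With library totals alone 19 of the 28 were called higher and 0 lower, against 41.7% of all tested genes higher and 5.29% lower, and their median of 0.40 stood beside 0.49 for all genes. In sum, constitutive subunits averaged 2805 ± 41.8 CPM in IRF3-2D and 2686 ± 50.1 CPM in Ctrl samples, and the inducible members 670 ± 8.23 CPM in IRF3-2D and 237 ± 15.2 CPM in Ctrl samples (SD, n = 3 each).

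**Figure D4:**
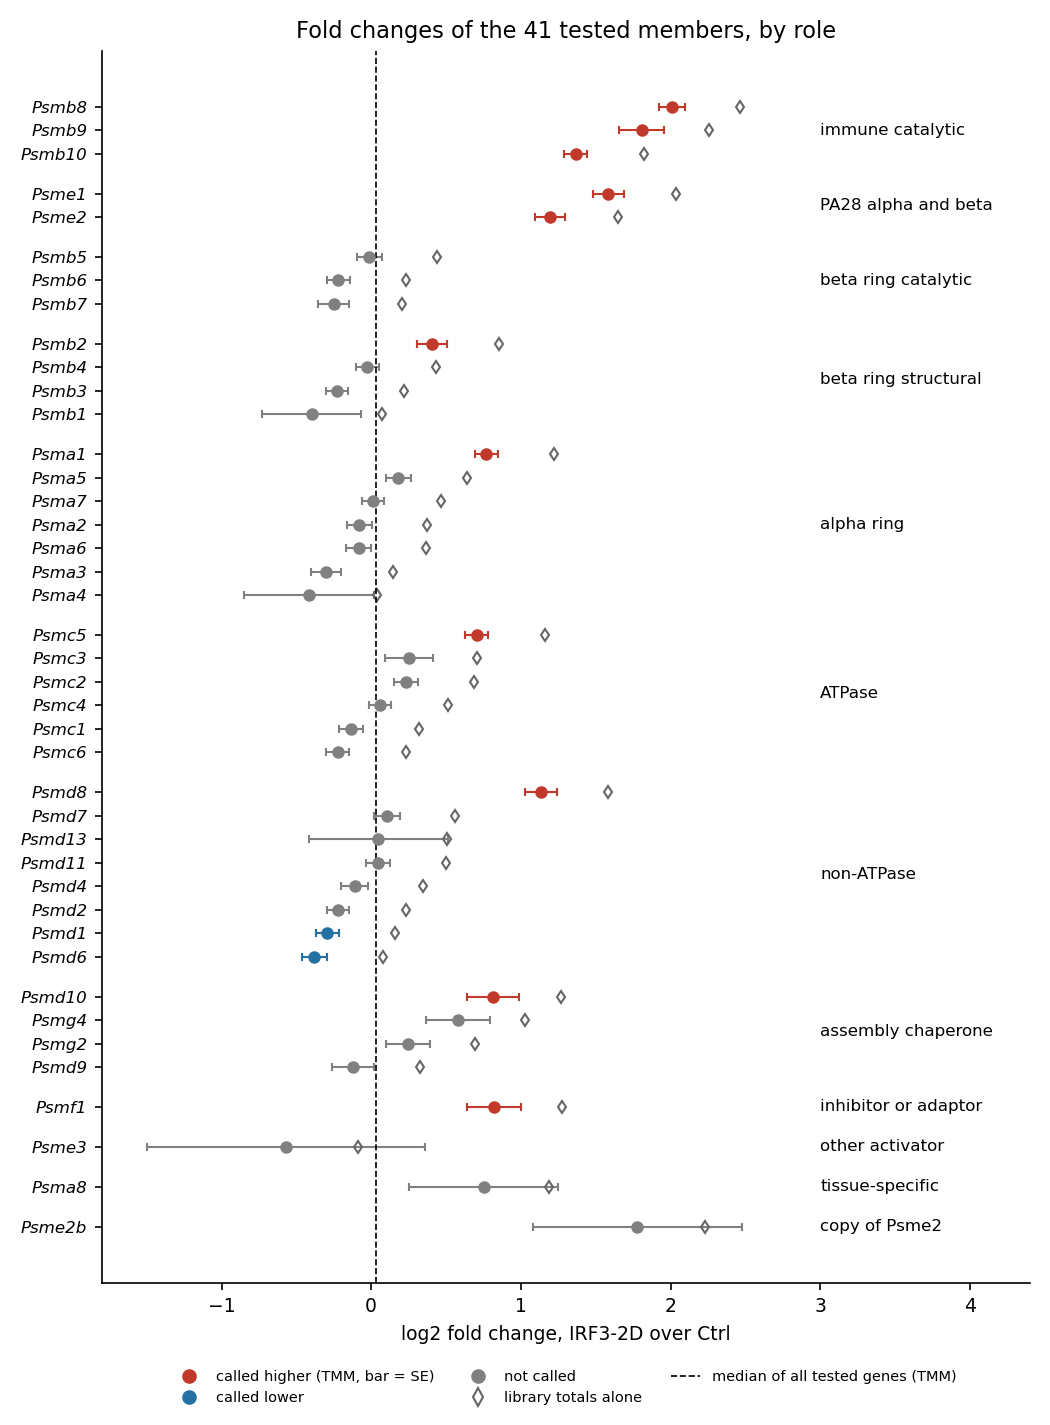
Log2 fold change (IRF3-2D over Ctrl) of the 41 tested members by role, with SE as a bar. Filled points are TMM values (red called higher, blue called lower, grey not called), open diamonds are values with library totals alone, and the dashed line is the median of all tested genes at 0.03. The 5 inducible members lie at 1.195 to 2.01, and Psmd8, Psma1 and Psmc5 stand to the right of their own groups.

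Of 8 tested members outside these classes, 2 were called higher and 0 lower by edgeR, against 13.2% and 13.1% of all tested genes. Of the 8, 4 had an unadjusted p under 0.05, and DESeq2 also gave 2 and 0. Psmd10 (gankyrin), a chaperone of the ATPase ring, had 8.99, 10.7 and 10.2 CPM in the IRF3-2D libraries and 5.88, 5.64 and 5.47 CPM in the Ctrl libraries. Psmf1, which encodes the proteasome inhibitor and adaptor PI31, had 18.95, 17.6 and 18.9 CPM in the IRF3-2D libraries, against 7.92, 11.7 and 11.8 CPM in the Ctrl libraries. The groups did not overlap for either gene. The log2 fold change was 0.81 for Psmd10 (SE 0.17, adjusted p = 0.0144) and 0.82 for Psmf1 (SE 0.18, adjusted p = 0.0161 by edgeR). The call of Psmd10 was lost without IRF3-2D replicate 2 (0.76) and that of Psmf1 without IRF3-2D replicate 1 (0.80). Psmg2 and Psmg4, chaperones of core assembly, and Psmd9 were not called (0.25, 0.58 and -0.12). Psma8 and Psmb11, subunits known from testis and thymus, had means of 16 and 6.50 counts.

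Levels per length show which members the table covers poorly. Of the 30 constitutive subunits, 25 had a mean of at least 100 counts, and these ranged from 12.4 to 154 CPM per kb of transcript (median 80) in IRF3-2D and from 13.9 to 160 CPM per kb (median 63.2) in Ctrl samples. Psme1 and Psme2, at 224 ± 16.1 and 209 ± 15.9 CPM per kb in IRF3-2D samples, exceeded the highest of these there, while at 74.9 ± 7.12 and 91.3 ± 7.33 CPM per kb in Ctrl samples they lay within the range. Psmd12 and Psmd3, whose products are parts of the regulatory particle, had at most 2 and 7 counts in any library and were not tested. Psmd13, Psma4 and Psmb1 averaged 18.2, 53.2 and 55.0 counts. Each has a fixed place in the particle, and which transcripts of a gene were counted is not given in the sources, so a value near 0 is not read as a missing subunit. In all, 14 of the 48 members had a mean under 100 counts, 7 did not pass the filter, and 10 share at least 10% of their sequence words with other genes.

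**Figure D5:**
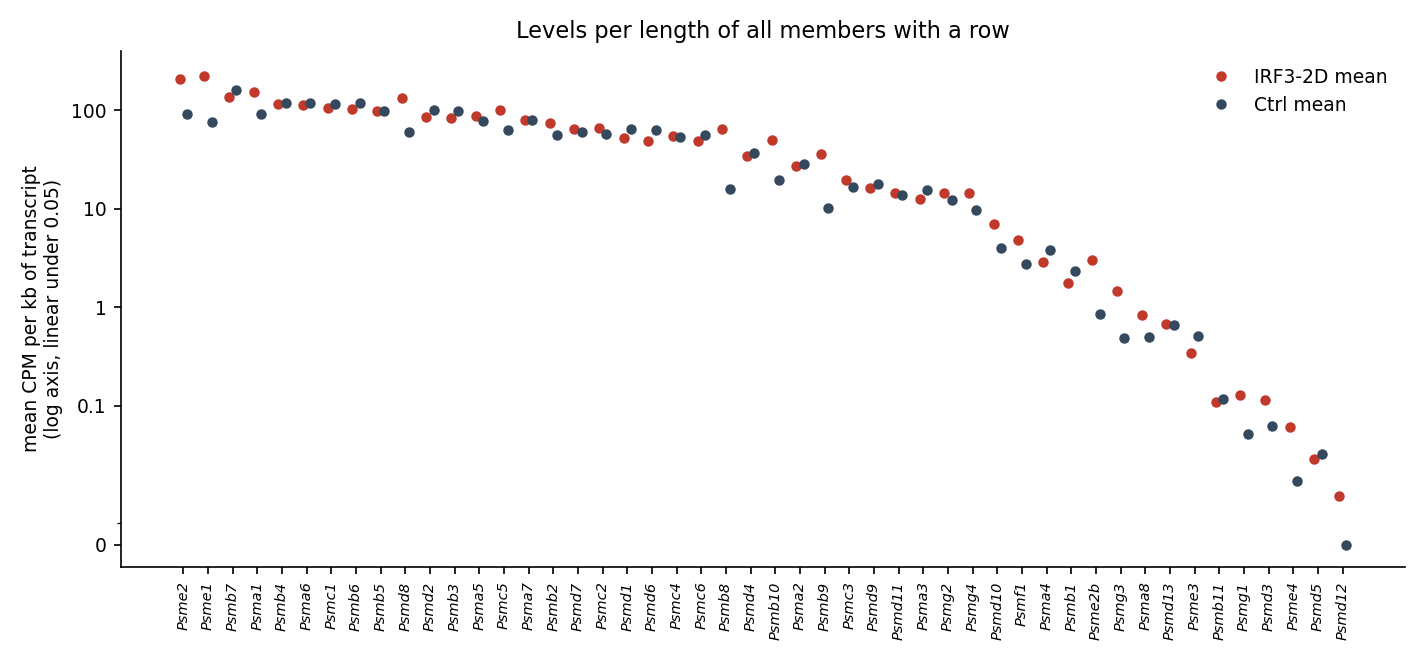
Mean level of all 48 members in CPM per kb of the longest coding transcript (log axis, linear under 0.05), ordered by level, for IRF3-2D (red) and Ctrl (dark blue) samples. Psme1 and Psme2 lead in IRF3-2D samples at 224 and 209 CPM per kb, and the right end holds subunits near 0 such as Psmd12 and Psmd3.

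Genes that act with the proteasome were read from lists. Of 16 tested partners outside the Psm names (assembly factors, ubiquitin receptors and deubiquitinases), 4 were called higher and 2 lower by edgeR. With library totals alone 13 were called higher and 0 lower. The shares of all tested genes were 13.2% higher and 13.1% lower with TMM, and 41.7% and 5.29% with library totals alone. Ecpas, a proteasome-bound scaffold, averaged 284 ± 16.4 CPM in IRF3-2D and 147 ± 1.26 CPM in Ctrl samples (log2 fold change 0.95, adjusted p = 0.000360), and Txnl1 was higher by 0.43 (adjusted p = 0.00666 by edgeR). Ube3c, a ubiquitin ligase found at the proteasome, was lower by 0.52 (adjusted p = 0.00574 by edgeR), or by 0.07 with library totals alone, where it was not called. The calls of Rad23b (higher), Ubqln2 (higher) and Uchl5 (lower) were each lost without 5 or 6 of the libraries in turn. Pomp, the maturation factor of the core, was not called (log2 fold change 0.14, SE 0.09). In the pathway of NRF1, the factor known to raise constitutive subunits when the proteasome is impaired, 2 of 7 were called lower and 0 higher by edgeR, DESeq2 and limma-voom, and these 2 alone had an unadjusted p under 0.05 in edgeR. They were Sel1l (-1.2) and Vcp (-0.48). With library totals alone 2 of the 7 were called higher (Faf2 and Syvn1) and 1 lower (Sel1l), and Vcp was at -0.02 and not called. With TMM, Nfe2l1, which encodes NRF1, had a log2 fold change of -0.47 with an SE of 0.58.

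Further lists hold genes that act on the peptides or on interferon-responsive transcription. Of 8 tested genes of peptide trimming and transport, 6 were called higher and 1 lower, against 13.2% and 13.1% of all tested genes. With library totals alone 7 were called higher and 0 lower, against 41.7% and 5.29% of all tested genes. Tapbp (tapasin) averaged 245 ± 5.12 CPM in IRF3-2D and 100.2 ± 10.1 CPM in Ctrl samples (log2 fold change 1.29, adjusted p = 0.000198 by edgeR), and Tapbpl rose by 0.95. The exception was the cytosolic peptidase Blmh, at -0.39, which was 0.06 with library totals alone and lost its call without IRF3-2D replicate 1 or 2 or Ctrl replicate 3. Among the 6, the call of Thop1 held when Ctrl replicate 2 was left out and was lost when any of the other libraries was. Of 8 regulators of interferon-responsive transcription, 5 were called higher and 1 lower, or 7 and 1 with library totals alone. The shares of all tested genes are those given above for each scaling. Nlrc5, the transactivator of class I genes, averaged 89.4 ± 5.42 CPM in IRF3-2D and 28.8 ± 2.96 CPM in Ctrl samples (log2 fold change 1.63, adjusted p = 9.2e-05 by edgeR), and Stat2 and Irf7 rose by 1.59 and 1.70. Irf2 was lower, at -0.76.

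Blood cells are known to express the inducible subunits, and their markers are given beside these results. In bulk liver, fewer cells of a type and less RNA per cell cannot be told apart. Among Kupffer cell and macrophage markers, edgeR called 4 of 11 higher (8 with library totals alone) and 0 lower, and DESeq2 called 5 higher. In edgeR 7 of the 11 had an unadjusted p under 0.05. Of all tested genes 13.2% were called higher and 13.1% lower, or 41.7% and 5.29% with library totals alone. All 12 markers summed to 924 to 1250 CPM in IRF3-2D and to 514 to 612 CPM in Ctrl libraries. Mpeg1 held much of this difference, at 518 ± 68.3 CPM in IRF3-2D and 125 ± 32.6 CPM in Ctrl samples (SD, n = 3 each). Clec4f, Vsig4, Timd4, Marco and C1qc were not called by edgeR, with log2 fold changes of 0.25 to 0.79. For Clec4f and Timd4 every IRF3-2D library was above every Ctrl library, as for 23.7% of all tested genes. The groups overlapped for Vsig4, Marco and C1qc. Adgre1 and Csf1r, at -0.56 and -0.12, were not called either. The calls of Cd5l and C1qa were lost without most single libraries. The 4 markers of all leukocytes (Ptprc, Cd52, Laptm5 and Coro1a) summed to 48.3 to 81.9 CPM in IRF3-2D and 34.1 to 50.9 CPM in Ctrl libraries. Of the 3 tested, edgeR called 0, with 3 at an unadjusted p under 0.05, while DESeq2 called 2 higher and library totals alone gave 3. The 10 T and NK cell markers summed to 11.6 to 16.6 CPM in IRF3-2D and 4.96 to 8.33 CPM in Ctrl libraries. Cd3g was at 0 in all 6 libraries, and 1 of 4 tested (Ccl5) was called higher. Ccl5 held much of the difference, at 6.59 ± 1.48 CPM in IRF3-2D and 0.87 ± 0.26 CPM in Ctrl samples. The others tested, Cd4, Klrb1c and Gzma, were not called, with log2 fold changes of -0.60, 0.58 and 0.97. The 5 B cell markers summed to 2.10 to 4.08 CPM in IRF3-2D and 1.80 to 3.43 CPM in Ctrl libraries, with Pax5 at 0 in all 6. Of 2 tested B cell and 2 tested neutrophil markers 0 were called by edgeR, 0 had an unadjusted p under 0.05 and DESeq2 called 0. Monocyte and dendritic cell markers summed to 6.75 to 23.6 CPM in IRF3-2D and 3.11 to 7.27 CPM in Ctrl libraries. Of 4 tested, Ly6c2 was called higher, with a log2 fold change of 3.04 (edgeR adjusted p = 0.0138), a call lost without IRF3-2D replicate 2. Neutrophil markers summed to 4.85 to 7.93 CPM in IRF3-2D and 4.88 to 9.46 CPM in Ctrl libraries. Sinusoidal endothelium markers summed to 139 to 182 CPM in IRF3-2D and 182 to 203 CPM in Ctrl libraries, with 1 of 4 (Kdr) called lower. This call held without IRF3-2D replicate 3 and was lost when any of the other libraries was left out. With library totals alone Kdr was at -0.05 and not called, and 1 of the 4 (Clec4g, 0.64) was called higher. The part of these cells in the rise of the inducible members was not tested.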

How the data were processed

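RNA of 6 mouse liver samples, 3 IRF3-2D and 3 Ctrl, was sequenced from poly-A selected, strand-specific libraries, per the labels' protocols. The deposited values are estimated counts per gene, not normalized. The submitters' processing notes list Salmon 1.2.1, GRCm38 and mm10 and give none of them a role. How values were summed to genes, with which annotation, strand setting and filters, is not stated in those sources. All deposited values were whole numbers and were used as they stand. Groups and replicate numbers come from the sample titles. Whether samples of a group are separate mice is not in the labels, and p-values then reflect sample-to-sample spread alone, possibly technical. Replicates all differed by more than sampling noise (chi-square per degree of freedom 20.2 to 120).

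Of 20894 identifiers, 20860 had a symbol in GENCODE M21 (GRCm38). The filterByExpr step of edgeR 4.0.16 (R 4.3.3) kept 10802 genes. The comparison used the quasi-likelihood F-test with TMM and the group as the only term, over all genes, with a Benjamini-Hochberg threshold of 0.05. TMM factors were 1.12 to 1.23 in IRF3-2D and 0.822 to 0.879 in Ctrl. The SE is the log2 fold change divided by the square root of F. The limit set by a count of 0 (3 counts) is 0.194 to 0.203 CPM in IRF3-2D and 0.234 to 0.252 CPM in Ctrl libraries, for counting error only. Ratios used counts plus 0.5. Per-length values divide by the longest coding transcript in GENCODE M21. Shared words are 31-base words of a gene's transcripts that occur in transcripts of another gene. The test was tried on simulated counts.

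Alternatives were DESeq2 1.42.0, limma-voom (limma 3.58.1), library totals, RLE and upper-quartile factors, no filter, a mean count of at least 50, a replicate block, and leaving out each library. Members, roles, lists and motifs were chosen with earlier results of these data known. Every member could be named, with values in every library for the inducible members, their catalytic counterparts, Psme3, Psme4, Psmf1 and up to 5 called constitutive members in each direction. From the partner lists, called genes with the 3 smallest adjusted p could be named, and from the neighbours, the nearest 2 tested genes on each side. Psmd10, Psme2b, Irf2, Blmh, Thop1, Rad23b, Ubqln2, Uchl5, Pomp, Nfe2l1, Faf2, Syvn1, Uba1, Uba6 and the marker genes were named after their values were seen. Some genes of the lists are not reported here.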

Additional observations from a re-analysis of the deposited data

How the results depend on the processing

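The 5 inducible members were called higher under all 14 alternatives tried, as were Psmd8, Psma1 and Psmc5, and RLE or upper-quartile factors moved no call of a member. Scaling decides most statements on constitutive subunits. With library totals alone 19 constitutive subunits were called higher and 0 lower, 5071 of all genes were called, against 2844 with TMM, and the median log2 fold change became 0.40 for constitutive and 2.04 for inducible members. The direction then turned for 17 members, to 0.37 for Psma2, 0.15 for Psma3, 0.038 for Psma4, 0.37 for Psma6, 0.071 for Psmb1, 0.22 for Psmb3, 0.43 for Psmb4, 0.44 for Psmb5, 0.23 for Psmb6, 0.21 for Psmb7, 0.32 for Psmc1, 0.23 for Psmc6, 0.16 for Psmd1, 0.23 for Psmd2, 0.34 for Psmd4, 0.076 for Psmd6 and 0.32 for Psmd9. The value of Psma7 was -0.0164 with DESeq2 or RLE factors and -0.0067 with upper-quartile factors. The number of constitutive subunits called lower, 2, was 6 with DESeq2, 5 among genes averaging 50 counts or more and 1 when no count filter was used, where their median was -0.0094.

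Replicate numbers are shared between the groups, but the correlation of same-numbered libraries' deviations was 0.0960, -0.0339 and 0.0449, so the numbers were not taken to pair the samples, and not every library correlated best with its own number. With a replicate block, 1 constitutive subunit was called lower, since Psmd1 lost its call, and Psmb2 lost its call too. No other member's call changed with the block.

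Leaving out a library gave 3 to 4 constitutive subunits higher, 0 to 3 lower, 1771 to 2675 genes called, medians of -0.09 to -0.04 (constitutive) and 1.52 to 1.66 (inducible), and ratio differences of 1.95 to 2.08 for Psmb8 to Psmb5, 1.88 to 2.18 for Psmb9 to Psmb6, 1.55 to 1.69 for Psmb10 to Psmb7, 1.51 to 2.97 for Psme1 to Psme3 and 1.03 to 2.66 for Psme2 to Psme3. Over these, the direction of 7 uncalled members turned, with ranges of -0.645 to 0.182 for Psma4, -0.038 to 0.0333 for Psma7, -0.0674 to 0.0037 for Psmb4, -0.0567 to 0.0375 for Psmb5, -0.0106 to 0.086 for Psmd11, -0.276 to 0.346 for Psmd13 and -1.63 to 0.21 for Psme3. The causes were not tested. Among tested members with a mean under 100 counts the SE reached 0.93 on the log2 scale (Psme3).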

Other observations

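Genes of ubiquitin and its activating enzymes were also read. Ubb, a polyubiquitin gene, averaged 676 ± 19.9 CPM in IRF3-2D and 493 ± 17.96 CPM in Ctrl samples (SD, n = 3 each), and its log2 fold change was 0.46 (edgeR adjusted p = 0.00583). Rps27a, which encodes ubiquitin joined to a ribosomal protein, was called lower, with a log2 fold change of -0.35 (edgeR adjusted p = 0.0419). With library totals alone it became 0.11 and was not called, and its call was also lost without any 1 of the 6 libraries. Uba1, which encodes the main activating enzyme, was not called (0.04, SE 0.08), and Uba6 is listed at 0 in every library.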
